A study of Homo sapiens with 6 samples.

Results

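The GATA and SOX lineage factors described here are 10 transcription factor genes, GATA2, GATA3, GATA4, GATA6, SOX2, SOX4, SOX9, SOX12, SOX13 and SOX17, among 60623 genes in the expression table. They were taken by symbol, and each symbol matched 1 row. All libraries were made from Huh7 cells by their labels, a line from a human hepatocellular carcinoma, with the treatment field given as NA. Of these, 3 carry the genotype SRSF10 knockdown, which the series title ties to a hairpin (shSRSF10), and 3 are controls of genotype WT, titled NC. SRSF10 belongs to the SR proteins, which act in splicing, and the comparison asks which transcripts differ when it is lowered. The labels name neither the hairpin sequence nor whether the controls carried a control hairpin, so effects of hairpin delivery and of lower SRSF10 cannot be told apart. It is not stated whether cells were a clone or a pool, or whether replicates were grown apart, and p-values therefore reflect spread among these 6 libraries, perhaps only technical spread.

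GATA factors are zinc finger proteins that bind a short GATA core in DNA. GATA2 and GATA3 are best known from blood, trophoblast and several epithelia, and GATA4 and GATA6 from the heart and the endoderm, where they act early in liver formation. SOX factors bind and bend DNA through an HMG box and are sorted into lettered groups by that box. SOX9, of group E, marks the bile duct and progenitor cells of the liver, SOX17, of group F, marks the definitive endoderm, and SOX2, of group B1, maintains pluripotent and foregut progenitor cells.

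Values are FPKM, fragments scaled by gene length and by library size, so levels of different genes can be set side by side. Depth was estimated from the steps between low values at 12720000 to 14350000 fragments per library. SRSF10 was at 10.6, 10.8 and 10.6 FPKM in the knockdown libraries, against 18.6, 19.5 and 19.8 FPKM in the controls, a log2 fold change of -0.80 ± 0.038 (SE) with a limma adjusted p = 0.000166 and an exact two-sided permutation p = 0.1, the smallest that 3 against 3 libraries allow. Defining liver transcripts were scarce or absent in both groups, which goes against the cell line label. Of 17 hepatocyte markers 14 stayed under 1 FPKM in every library, among them ALB at 0.434 to 0.814 FPKM in the knockdown and 0.115 to 0.172 FPKM in the controls, and AFP at 0.872 to 0.892 FPKM in the knockdown and 0.669 to 0.958 FPKM in the controls. APOA1 stood at or under 0.11 FPKM. TTR, APOA2 and APOC3 were listed at 0 throughout. The summed level of the list was 36.95 to 39.4 FPKM in the knockdown and 33.97 to 37.4 FPKM in the controls, most of it from APOH.

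GATA2 fell most among the 10 genes, and its antisense neighbour GATA2-AS1 fell too. The 250 bases before their 3 start sites, taken from RefSeq on GRCh38.p14, are printed because both genes of the pair were called lower. GATA2 is read from the minus strand and has 2 start sites, at 128493201 and 128488530 on chromosome 3. GATA2-AS1 is read from the plus strand and starts at 128489203, between them, 673 bases from the nearer GATA2 start and 3998 from the farther one. Capitals mark matches, on either strand, to a CCAAT box (CCAAT), a GC box (GGGCGG) or a cyclic AMP response element (TGACGTCA).
GATA2, chr3:128493202-128493451, minus strand: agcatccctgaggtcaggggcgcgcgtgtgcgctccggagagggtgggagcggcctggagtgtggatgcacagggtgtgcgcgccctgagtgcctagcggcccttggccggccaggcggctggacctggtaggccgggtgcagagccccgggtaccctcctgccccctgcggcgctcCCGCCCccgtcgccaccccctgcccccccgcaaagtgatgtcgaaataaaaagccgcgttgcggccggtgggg
GATA2, chr3:128488531-128488780, minus strand: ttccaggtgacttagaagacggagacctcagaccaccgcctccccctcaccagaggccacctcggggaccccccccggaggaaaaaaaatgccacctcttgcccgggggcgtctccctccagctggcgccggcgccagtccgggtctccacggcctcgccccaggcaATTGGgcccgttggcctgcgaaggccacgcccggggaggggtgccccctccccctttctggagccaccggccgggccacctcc
GATA2-AS1, chr3:128488953-128489202, plus strand: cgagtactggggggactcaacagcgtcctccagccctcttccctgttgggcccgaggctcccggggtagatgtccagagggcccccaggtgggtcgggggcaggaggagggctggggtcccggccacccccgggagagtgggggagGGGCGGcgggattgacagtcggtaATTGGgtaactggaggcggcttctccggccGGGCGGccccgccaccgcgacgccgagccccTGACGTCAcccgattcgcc

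All 3 windows are rich in G and C, at 72.8% and 71.2% for the farther and the nearer GATA2 start and 72.4% for GATA2-AS1, against a median of 58.0% over 35116 windows of the same length before RefSeq starts. The nearer GATA2 window and the GATA2-AS1 window each hold a CCAAT box, beginning 83 and 80 bases before the start, as do 32.0% of all windows. The farther GATA2 window has a GC box beginning 73 bases before the start, and the GATA2-AS1 window has 2, beginning 104 and 50 bases before it, where 42.6% of all windows hold at least 1. The cyclic AMP response element begins 19 bases before the GATA2-AS1 start, and 1.65% of all windows hold one. None of the 3 windows holds a GATA motif on either strand, which 22.3% of all windows do, or a SOX motif, which 33.7% do. These shares cover windows of any G and C content, and none was taken over windows as rich in G and C. The GATA motif was searched as AGATAA and as AGATAG, and likewise as TGATAA and as TGATAG, and the SOX motif as ACAAT and as ACAAAG. No match here overlaps another. Windows were found for 7 of the 10 genes. SOX9, GATA4 and SOX17 had none.

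Of the 10 genes, 9 passed the filter of at least 1 FPKM in at least 3 libraries. SOX9 and GATA6 were called higher in the knockdown and GATA2 and GATA3 lower, at a limma adjusted p under 0.05 over all 12191 tested genes. SOX2, SOX4, SOX12, SOX13 and GATA4 were not called, and SOX17 was listed at 0. Among all tested genes 12.6% were called higher and 12.5% lower, 25.2% in all, so calls were common in this comparison. Groups that did not overlap were commoner still, at 42.7% of tested genes, and were seen in the 4 called factors. GATA3 passed the filter through the controls alone, so its groups could not overlap. The median log2 fold change of the 9 tested factors was 0.10, against -0.01 over all tested genes, and the median size of their change was 0.25, against 0.13. A change of at least 2-fold in FPKM + 1 was called for 1.07% of tested genes, and GATA2 and SOX9 were among them. GATA2 ranked 11 from the lowest fold change and SOX9 ranked 56 from the highest.

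**Figure D1:**
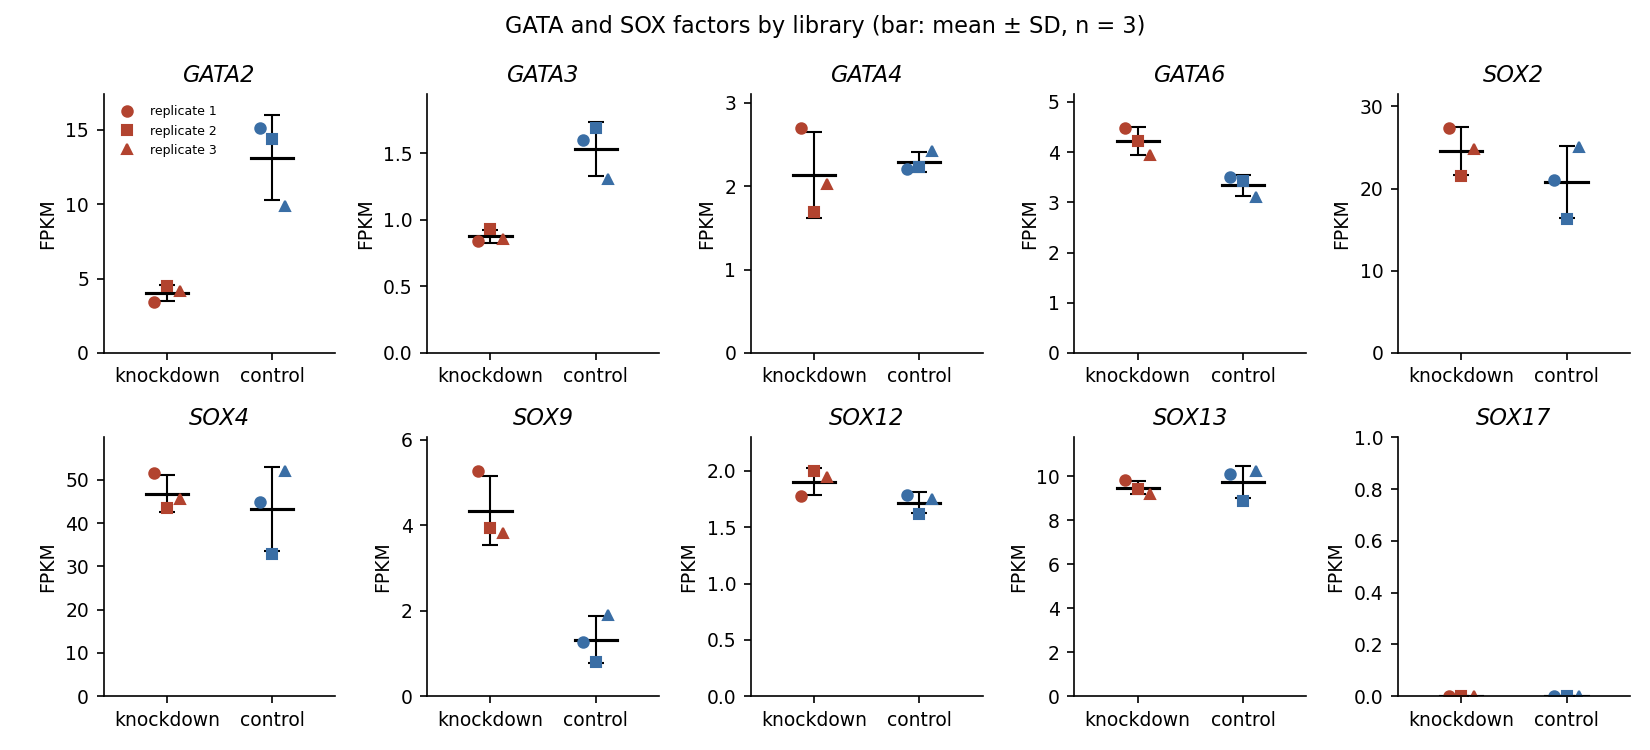
FPKM of the 10 factors in each library, on linear axes that start at 0, with knockdown libraries left of controls; symbols mark replicate numbers and black bars the mean ± SD (n = 3). GATA2 and GATA3 lie below and SOX9 and GATA6 above every control library, the other factors overlap, and SOX17 is at 0 in all 6 libraries.

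GATA2 (ENSG00000179348, chromosome 3, 128479427 to 128493185, minus strand), a regulator of blood stem cells and endothelium, was at 3.44, 4.46 and 4.14 FPKM in knockdown replicates 1 to 3, against 15.1, 14.4 and 9.88 FPKM in control replicates 1 to 3. The lowest control was still more than 2-fold above the highest knockdown library. The mean was 4.02 ± 0.52 FPKM in the knockdown and 13.1 ± 2.8 FPKM in the controls (SD, n = 3 each), a change of -69.4%. The log2 fold change was -1.48 (SE 0.16, 95% interval -1.85 to -1.11, limma adjusted p = 0.00136). An estimated 215 to 270 fragments stood behind each knockdown value and 597 to 968 behind each control value. In bulk libraries fewer cells of a type and less RNA per cell cannot be told apart.

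GATA2-AS1 (ENSG00000244300, chromosome 3, 128489212 to 128502348, plus strand), a long non-coding RNA, was at 1.87, 3.26 and 2.21 FPKM in the knockdown and 8.28, 8.31 and 5.69 FPKM in the controls. It fell by 1.29 on the log2 scale (SE 0.18, limma adjusted p = 0.00369). No exon of either gene overlaps an exon of another gene in GENCODE 29. The strand setting of the counting is not given in the sources used here, so any reads from the stretch that the genes share on opposite strands cannot be told apart. The ratio of GATA2 to GATA2-AS1 within a library was 1.84, 1.37 and 1.88 in the knockdown, against 1.83, 1.73 and 1.74 in the controls, so both groups spanned a common range. Control replicate 3 was the lowest control for both genes and knockdown replicate 2 the highest knockdown library for both.

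Both genes lie on the long arm of chromosome 3, where lower calls were common. On that arm 33.2% of 392 tested genes were called lower and 7.65% higher, with a median log2 fold change of -0.13, against 10.6% lower and 13.1% higher of 11428 genes on other chromosomes. Within 1 Mb of the GATA2 start 22 other genes were tested, of which 9 were called lower and the rest were not called, with a median of -0.16. Apart from GATA2-AS1, the lower calls there ran from -0.69 for PODXL2 to -0.22 for CNBP. RPN1 and RAB7A, the tested genes nearest upstream of GATA2, had log2 fold changes of -0.02 and -0.01 (limma adjusted p = 0.579 and 0.883). On the other side of GATA2, beyond GATA2-AS1, the nearest tested gene was RUVBL1, at -0.42 (limma adjusted p = 0.000679), and MGLL was also called lower, at -0.37. The part of the chromosome in the change of GATA2 was not tested. SOX2, which lies on the same arm, was not called.

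**Figure D2:**
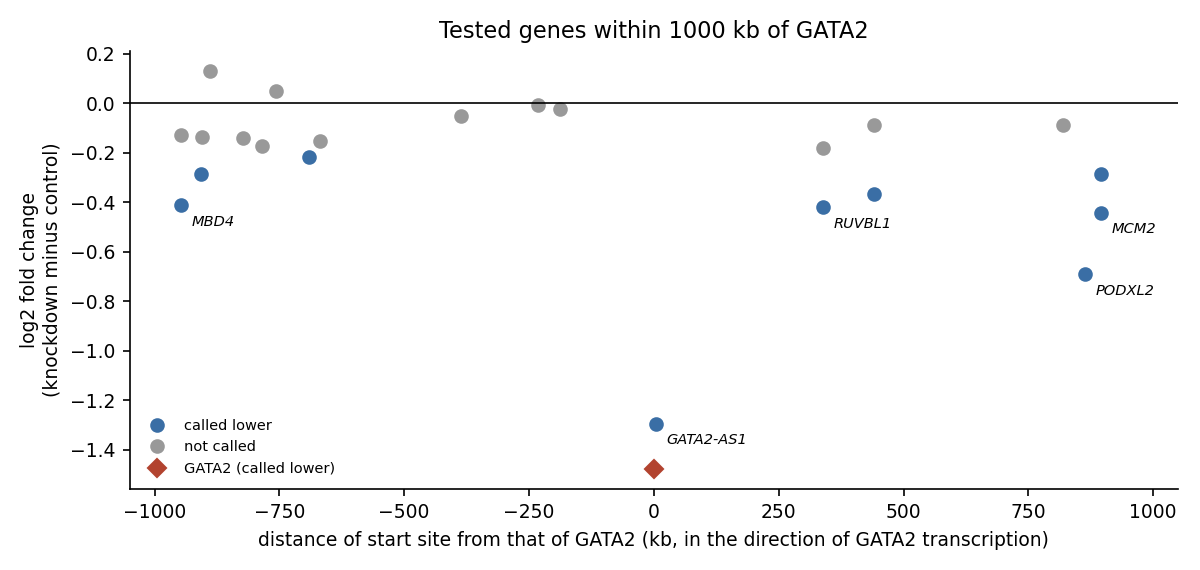
Log2 fold change, knockdown minus control, of the 22 tested genes within 1 Mb of the GATA2 start site, by distance in the direction of GATA2 transcription; blue points were called lower, grey points were not called and the diamond is GATA2. GATA2 (-1.48) and GATA2-AS1 (-1.29) lie below all other genes of the window, the next being PODXL2 at -0.69.

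GATA3 (ENSG00000107485, chromosome 10, 8045378 to 8075203, plus strand), which directs T cell and luminal epithelial fates, was at 0.841, 0.930 and 0.853 FPKM in the knockdown and 1.60, 1.69 and 1.30 FPKM in the controls. It reached 1 FPKM in the controls alone, so it could be tested only because it was higher there. The mean was 0.875 ± 0.048 FPKM in the knockdown and 1.53 ± 0.20 FPKM in the controls (SD, n = 3 each). GATA3 fell by 0.43 on the log2 scale (SE 0.094, limma adjusted p = 0.0174), while the ratio of its means without a pseudocount was 0.571. Only an estimated 37 to 43 fragments per knockdown library and 61 to 79 per control library were counted. The call was lost without knockdown replicate 1 (limma adjusted p = 0.0563) or 3 (0.0540), without control replicate 1 (0.0611) or 2 (0.0574), as well as with no filter (0.0607), and the adjusted p ran over 0.00837 to 0.0611 in the alternatives. GATA3-AS1 was listed at 0 in every knockdown library and in control replicate 3, and at 0.0293 and 0.0332 FPKM in control replicates 1 and 2.

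GATA6 (ENSG00000141448, chromosome 18, 22169443 to 22202528, plus strand), an endoderm factor, was at 4.49, 4.23 and 3.94 FPKM in the knockdown, against 3.50, 3.42 and 3.10 FPKM in the controls. The lowest knockdown library lay above the highest control. GATA6 rose to a mean of 4.22 ± 0.27 FPKM in the knockdown, against 3.34 ± 0.21 FPKM in the controls (SD, n = 3 each), or 0.26 ± 0.065 (SE) as a log2 fold change (limma adjusted p = 0.0258). The call was lost without knockdown replicate 1 (0.0843) or 2 (0.0766), without control replicate 2 (0.0531) or 3 (0.0627) as well as with no filter (0.0719), and the adjusted p ran over 0.0220 to 0.0843 in the alternatives. Exons of GATA6 overlap those of GATA6-AS1 and AC091588.3. GATA6-AS1 was at 0.135 to 0.185 FPKM in the knockdown and 0.0931 to 0.198 FPKM in the controls.

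GATA4 (ENSG00000136574, chromosome 8, 11676959 to 11760002, plus strand), which works beside GATA6 in the early liver, was at 2.70, 1.69 and 2.03 FPKM in the knockdown and 2.21, 2.23 and 2.43 FPKM in the controls. The knockdown libraries lay on both sides of the controls, with a coefficient of variation of 24.1% in the knockdown and 5.25% in the controls. The log2 fold change was -0.08 (95% interval -0.36 to 0.21, limma adjusted p = 0.676). GATA1, the erythroid factor, stayed at or under 0.0492 FPKM in every library, and GATA5 was listed at 0.

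The make-up of the GATA family differed between the groups. The summed FPKM of GATA2, GATA3, GATA4 and GATA6 was 11.5, 11.3 and 10.96 in the knockdown and 22.4, 21.7 and 16.7 in the controls. GATA2 supplied 30.0%, 39.5% and 37.8% of that sum in the knockdown, against 67.4%, 66.2% and 59.1% in the controls. The ratio of GATA2 to GATA6 within a library was 0.768, 1.06 and 1.05 in the knockdown, against 4.32, 4.19 and 3.18 in the controls. GATA2 was below GATA6 in knockdown replicate 1, about level with it in knockdown replicates 2 and 3, and at least 3.18 times as high in each control. The ratio of GATA2 to GATA3 was 4.09 to 4.86 in the knockdown and 7.58 to 9.47 in the controls, again without overlap. A scaling factor per library cancels in these ratios.

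**Figure D3:**
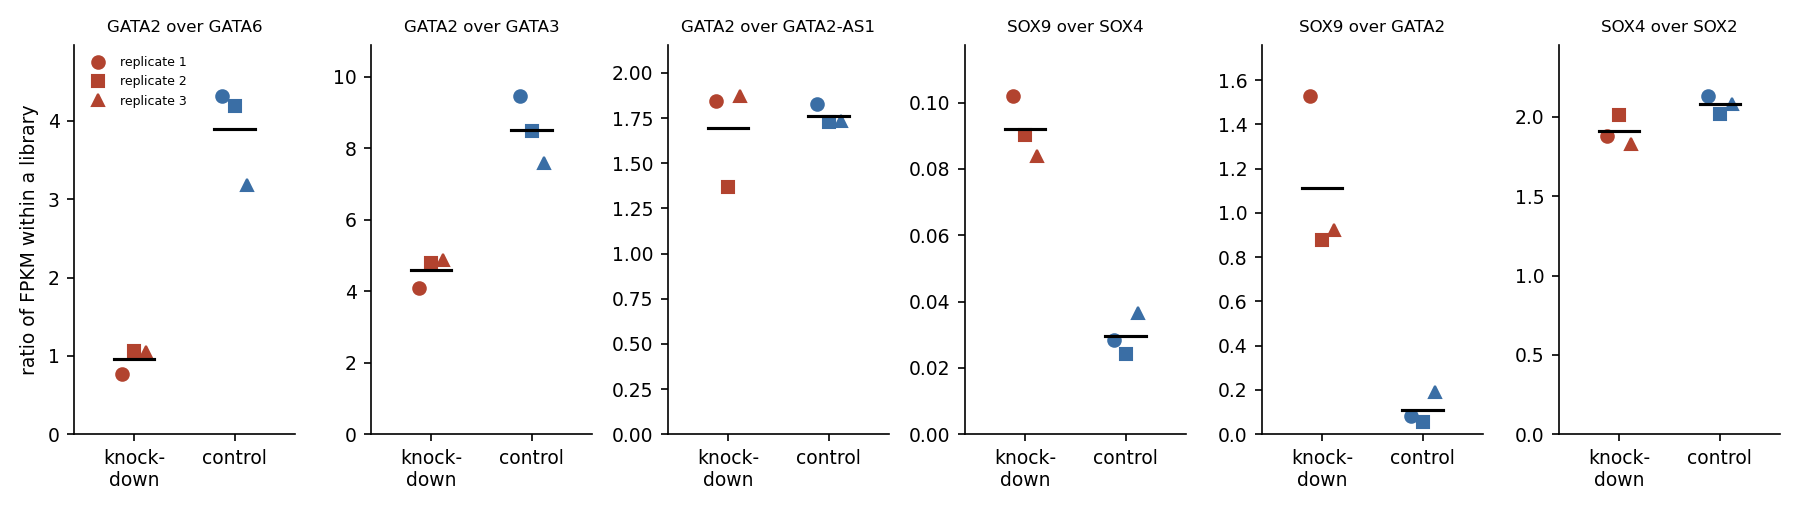
Ratios of FPKM of 2 genes within each library, on linear axes that start at 0, knockdown left of control; symbols mark replicate numbers and bars the mean. GATA2 over GATA6 averages 0.959 in the knockdown and 3.90 in the controls, whereas GATA2 over GATA2-AS1 spans 1.37 to 1.88 in the knockdown and 1.73 to 1.83 in the controls.

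SOX9 (ENSG00000125398, chromosome 17, 72121020 to 72126420, plus strand), the duct and progenitor factor of the liver, was at 5.27, 3.92 and 3.82 FPKM in the knockdown, against 1.27, 0.800 and 1.90 FPKM in the controls. The lowest knockdown library was about 2-fold above the highest control, control replicate 3. SOX9 rose to a mean of 4.34 ± 0.81 FPKM in the knockdown, against 1.32 ± 0.55 FPKM in the controls (SD, n = 3 each), 3.28-fold. The log2 fold change was 1.22 (SE 0.19, 95% interval 0.78 to 1.66, limma adjusted p = 0.00482), and with a pseudocount of 0.1 it was 1.70. An estimated 192 to 290 fragments per knockdown library and 40 to 101 per control library were counted. SOX9-AS1 was listed at 0 in 4 libraries and stood at or under 0.00431 FPKM in the others. LINC00511 is a long non-coding RNA whose start lies 519452 bases beyond that of SOX9 in the direction of SOX9 transcription. It fell to 1.60 ± 0.18 FPKM in the knockdown, against 2.41 ± 0.32 FPKM in the controls (log2 fold change -0.39, limma adjusted p = 0.0288). Of the 4 other genes tested within 1 Mb of the SOX9 start, LINC00511 alone was called lower. SLC39A11 alone was called higher, with a log2 fold change of 0.44 (limma adjusted p = 0.00772).

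SOX9 and GATA2 stood close together in the knockdown and far apart in the controls. SOX9 over GATA2 within a library was 1.53, 0.879 and 0.923 in the knockdown and 0.0842, 0.0557 and 0.192 in the controls, so SOX9 was above GATA2 in knockdown replicate 1 alone. In the knockdown the ranges of SOX9, GATA6 and GATA2 overlapped one another in the order of means. In the controls SOX9 had the lowest mean of the 9 factors above 0, with a range that overlapped that of GATA3, while GATA2 ranked 3, its range overlapping that of SOX13.

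SOX4 and SOX2 were the most abundant of the 10 factors in both groups and had the same order of libraries within each group. SOX4 (ENSG00000124766, chromosome 6, 21592768 to 21598619, plus strand), a group C factor of progenitor cells and many carcinomas, was at 51.6, 43.4 and 45.5 FPKM in the knockdown and 44.8, 32.9 and 52.0 FPKM in the controls. SOX2 (ENSG00000181449, chromosome 3, 181711924 to 181714436, plus strand) was at 27.4, 21.6 and 24.8 FPKM in the knockdown and 21.0, 16.3 and 25.0 FPKM in the controls. Both were highest in control replicate 3 and lowest in control replicate 2 among the controls, and the groups overlapped. The ratio of SOX4 to SOX2 was 1.83 to 2.01 in the knockdown and 2.02 to 2.13 in the controls, without overlap by a narrow margin.

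Neither gene was called. The log2 fold change of SOX4 was 0.13 (95% interval -0.24 to 0.51, limma adjusted p = 0.590), and without control replicate 2 it was -0.05. That of SOX2 was 0.25 (95% interval -0.11 to 0.61, limma adjusted p = 0.287), and the spread of the controls, a coefficient of variation of 21.0% for SOX2 and 22.4% for SOX4, limited what could be detected. An exon of SOX4 overlaps one of the antisense gene AL512380.2. SOX2-OT, the host transcript around SOX2, was at 0.00929 to 0.0272 FPKM in the knockdown and 0.00220 to 0.00933 FPKM in the controls.

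SOX12 (ENSG00000177732, chromosome 20, 325595 to 330224, plus strand), a group C relative of SOX4, was at 1.77, 2.0 and 1.94 FPKM in the knockdown and 1.79, 1.61 and 1.75 FPKM in the controls. The ranges overlapped by a narrow margin, and the log2 fold change was 0.10 (95% interval -0.07 to 0.27, limma adjusted p = 0.378). SOX13 (ENSG00000143842, chromosome 1, 204073115 to 204127743, plus strand), a group D factor without a transactivation domain of its own, was at 9.83, 9.44 and 9.21 FPKM in the knockdown and 10.1, 8.89 and 10.2 FPKM in the controls. Its log2 fold change of -0.03 had a 95% interval of -0.17 to 0.11 (limma adjusted p = 0.733), the narrowest among the 9 tested factors. The groups overlapped throughout.

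SOX17 (ENSG00000164736, chromosome 8, 54457935 to 54460888, plus strand) was listed at 0 in all 6 libraries. At the estimated depths 3 fragments, the limit that a count of 0 allows, correspond to 0.0893 to 0.101 FPKM, for counting error only. SOX18, its group F relative and a regulator of vessel development, was under the filter by 1 library and was not tested. It stood at 0.268, 0.276 and 0.378 FPKM in the knockdown, against 1.61, 0.845 and 1.03 FPKM in the controls, without overlap. With no filter its log2 fold change was -0.71 (limma adjusted p = 0.0524).

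**Figure D4:**
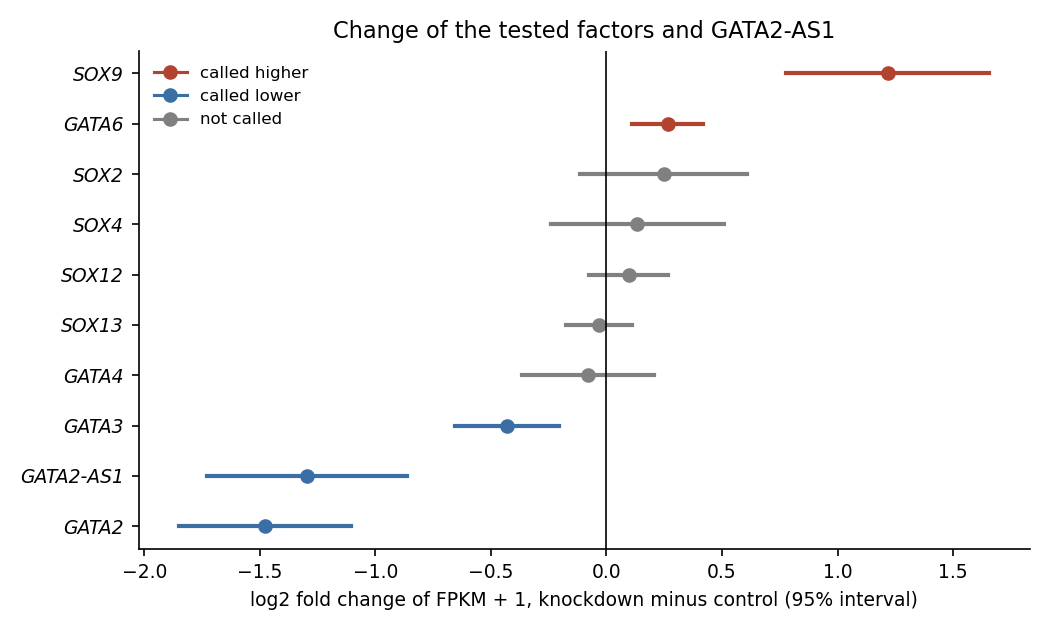
Log2 fold change of FPKM + 1, knockdown minus control, of the 9 tested factors and GATA2-AS1, with unadjusted 95% intervals from limma; red was called higher, blue called lower and grey not called. SOX9 (1.22) and GATA6 (0.26) lie above 0, GATA3 (-0.43), GATA2-AS1 (-1.29) and GATA2 (-1.48) below it, and the intervals of the other 5 include 0.

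Relatives and partners of the 10 factors were mostly low or not called, where 12.6% of all tested genes were called higher and 12.5% lower. Of 13 other SOX genes none passed the filter, and SOX1, SOX3, SOX8, SOX14 and SOX21 were listed at 0 throughout. Among 7 other GATA-type proteins 4 were tested, of which 1 was called lower and 0 higher. That was TRPS1, a GATA-type repressor, which fell to 6.84 ± 0.33 FPKM in the knockdown, against 8.13 ± 0.11 FPKM in the controls (log2 fold change -0.22, limma adjusted p = 0.0149). GATAD2A and GATAD2B, the NuRD complex subunits on this list, were not called, nor was GATAD1, with a log2 fold change of 0.16. GATAD2B was at 11.9 ± 0.32 FPKM in the knockdown and 10.8 ± 0.67 FPKM in the controls. Of 20 partners and co-regulators of GATA factors 8 were tested and 0 were called by limma at the adjusted threshold (1 at an unadjusted p under 0.05), with a median log2 fold change of -0.02. LDB1, the bridging cofactor, was at 14.9 ± 0.76 FPKM in the knockdown and 16.0 ± 1.3 FPKM in the controls.

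Other factors of the endoderm, liver and bile duct were called in both directions. Of 28 on the list 16 were tested, 4 were called higher (25.0%) and 3 lower (18.8%), with a median log2 fold change of 0.12. The shares over all tested genes were 12.6% and 12.5%, with a median of -0.01. The nuclear receptor NR2F1 rose to 3.19 ± 0.29 FPKM in the knockdown, against 1.42 ± 0.036 FPKM in the controls (log2 fold change 0.79, limma adjusted p = 0.000933). XBP1, a factor of the unfolded protein response, rose by 0.36, CEBPB by 0.33 and HNF4G by 0.28 on the log2 scale. TBX3, which acts in the liver bud, fell to 4.07 ± 0.36 FPKM in the knockdown, against 6.43 ± 0.50 FPKM in the controls, and KLF5, an epithelial factor, fell to 16.7 ± 0.33 FPKM in the knockdown, against 22.3 ± 0.80 FPKM in the controls. CEBPA, which drives hepatocyte maturation, fell to 5.63 ± 0.78 FPKM in the knockdown, against 8.22 ± 1.55 FPKM in the controls (log2 fold change -0.47, limma adjusted p = 0.0458). The pioneer factor FOXA2 was at 8.50 ± 0.59 FPKM in the knockdown and 7.40 ± 0.99 FPKM in the controls and was not called. HNF4A, a master factor of hepatocytes, was at 4.65 ± 0.42 FPKM in the knockdown and 5.30 ± 0.99 FPKM in the controls and was not called either.

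Most pluripotency factors on the list were under 1 FPKM or at 0, with KLF4 as the exception. Of 12 on the list 1 was tested, KLF4, at 9.15 to 9.67 FPKM in the knockdown and 10.1 to 10.2 FPKM in the controls, and it was not called (log2 fold change -0.10, limma adjusted p = 0.101). POU5F1 was at 0.458 to 0.545 FPKM in the knockdown and 0.554 to 0.627 FPKM in the controls. NANOG, LIN28A and LIN28B were listed at 0.

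Bile duct and progenitor markers, among which SOX9 is usually read, did not move one way. Of 15 on the list 7 were tested, 3 were called higher (42.9%) and 2 lower (28.6%), against 12.6% and 12.5% of all tested genes. CD24, a surface protein, rose to 3.94 ± 0.67 FPKM in the knockdown, against 0.461 ± 0.20 FPKM in the controls, and passed the filter through the knockdown alone. The secreted phosphoprotein SPP1 rose to 353 ± 14 FPKM in the knockdown, against 252 ± 17 FPKM in the controls, and the annexin ANXA4 to 15.7 ± 0.80 FPKM in the knockdown, against 12.8 ± 0.44 FPKM in the controls. The duct keratin KRT7 fell to 1.14 ± 0.23 FPKM in the knockdown, against 3.16 ± 0.66 FPKM in the controls (log2 fold change -0.95, limma adjusted p = 0.00405), and the mucin MUC1 to 1.41 ± 0.10 FPKM in the knockdown, against 2.13 ± 0.15 FPKM in the controls. KRT19 was at 84.2 ± 5.0 FPKM in the knockdown and 91.2 ± 1.8 FPKM in the controls and was not called. CFTR was listed at 0, and EPCAM stayed at or under 0.304 FPKM.

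Signalling pathways that act on SOX9 or share DNA sites with SOX factors were read from lists. In the Notch pathway, which acts on SOX9 in bile duct development, 10 of 20 members were tested. Of these, 5 were called higher by limma (50.0%) and 0 lower (1 at an unadjusted p under 0.05). Over all tested genes the shares called were 12.6% higher and 12.5% lower. NRARP, a feedback inhibitor, rose to 2.21 ± 0.14 FPKM in the knockdown, against 0.691 ± 0.13 FPKM in the controls, and passed the filter through the knockdown alone. The receptor NOTCH2 rose to 9.94 ± 0.37 FPKM in the knockdown, against 5.74 ± 0.34 FPKM in the controls (log2 fold change 0.70, limma adjusted p = 0.000549), and the target HEY1 to 7.40 ± 0.28 FPKM in the knockdown, against 4.64 ± 0.335 FPKM in the controls. RBPJ, the DNA-binding effector, and NOTCH1 rose by 0.26 and 0.25 on the log2 scale. The target HES1 and the ligand JAG1 had log2 fold changes of -0.11 and -0.00 (limma adjusted p = 0.158 and 0.986). Without knockdown replicate 1 or 2, or with a filter of 5 FPKM, the higher calls in this list numbered 3. The part of Notch genes in the change of SOX9 was not tested.

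Of 16 TCF/LEF factors and Wnt feedback genes 9 were tested, 1 was called higher (11.1%) and 3 lower (33.3%). The shares over all tested genes were 12.6% and 12.5%. DKK1, a secreted Wnt antagonist, rose to 30.2 ± 0.52 FPKM in the knockdown, against 15.9 ± 1.7 FPKM in the controls. The feedback genes RNF43 and AXIN2 fell by 0.53 and 0.36 and CTNNB1, the gene of beta-catenin on chromosome 3, fell by 0.28 on the log2 scale. CTNNB1 lies on the short arm of chromosome 3, where 56.7% of 326 tested genes were called lower and the median log2 fold change was -0.27. Of 14 YAP/TAZ factors and targets 12 were tested, 3 were called higher (25.0%) and 2 lower (16.7%), against 12.6% and 12.5% of all tested genes. The higher calls were AXL, LATS2 and AJUBA and the lower ones CCN2 and AMOTL2. AMOTL2 lies on the long arm of chromosome 3, where 33.2% of 392 tested genes were called lower. YAP1 itself was not called (log2 fold change 0.11, limma adjusted p = 0.0976).

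**Figure D5:**
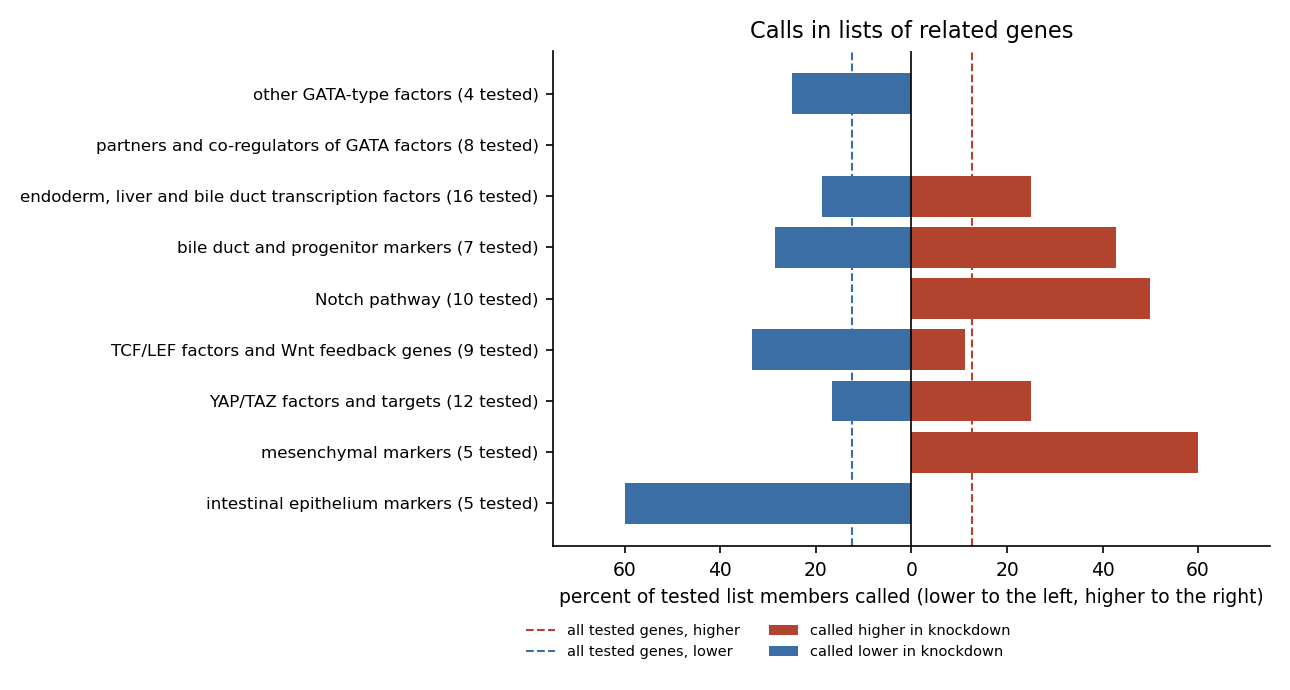
Percent of tested members of each list called lower (left) and higher (right) in the knockdown, for lists with at least 4 tested genes, with dashed lines at the share of all 12191 tested genes. Of the tested Notch pathway genes 50.0% were called higher and 0 lower, and of the endoderm, liver and bile duct factors 25.0% and 18.8%. NRARP (Notch list) and CD24 (duct list) passed the filter through the knockdown alone and CEACAM5 (intestinal list) through the controls alone. The lists were chosen with earlier results of these data known.

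Markers of other tissues in which GATA or SOX factors act were mostly low, and some moved. Each of these lists had at most 5 tested genes, and 12.6% of all tested genes were called higher and 12.5% lower. Of 8 endothelial markers 2 were tested and both were called higher: KDR at 3.09 ± 0.43 FPKM in the knockdown and 0.502 ± 0.27 FPKM in the controls, and PECAM1 at 6.85 ± 0.57 FPKM in the knockdown and 5.28 ± 0.62 FPKM in the controls. KDR passed the filter through the knockdown alone. CDH5, TEK, VWF and ERG stayed at or under 0.0978 FPKM and TIE1 and EMCN were listed at 0, and the sum of the list was 9.57 to 10.8 FPKM in the knockdown and 5.49 to 6.17 FPKM in the controls. Of 8 intestinal markers 5 were tested, of which VIL1, LGALS4 and CEACAM5 were called lower. CEACAM5 passed the filter through the controls alone. Their list summed to 69.8 to 77.8 FPKM in the knockdown and 84.7 to 113 FPKM in the controls, with CDX1 and FABP1 listed at 0. Of 12 mesenchymal markers 5 were tested and 3 called higher (SPARC, CDH2 and FN1), and the sum was 1448 to 1471 FPKM in the knockdown and 1036 to 1282 FPKM in the controls, with TWIST1 at 0. FN1 made up most of that sum, at 1390 to 1416 FPKM in the knockdown and 993 to 1239 FPKM in the controls, while VIM, COL1A1, COL3A1 and ACTA2 stayed under 1 FPKM. Of 10 blood cell markers 1 was called higher, ITGAM, and the list summed to 1.96 to 2.68 FPKM in the knockdown and 1.13 to 1.57 FPKM in the controls, with SPI1 at 0. No lung marker passed the filter, with sums of 0.277 to 0.720 FPKM in the knockdown and 0.0220 to 0.376 FPKM in the controls. Of 10 breast and urothelium markers PPARG, also on the short arm of chromosome 3, was called lower, and the list summed to 31.0 to 32.8 FPKM in the knockdown and 38.4 to 39.8 FPKM in the controls. The part of these markers in the changes of GATA2, GATA3, GATA6 and SOX9 was not tested.

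For each called factor the 3 tested genes with the most similar profile were taken, by the root mean square difference in log2(FPKM + 1) over the 6 libraries after each gene was set relative to its own control mean. For GATA2 these were CRABP2, a retinoic acid binding protein (difference 0.11), CPLX2, a complexin of vesicle release (0.16), and GATA2-AS1 (0.17). CRABP2 was at 26.5 ± 2.2 FPKM in the knockdown and 70.04 ± 9.3 FPKM in the controls, and CPLX2 at 2.65 ± 0.23 FPKM in the knockdown and 9.31 ± 1.9 FPKM in the controls. For SOX9 they were TMEM154 (0.07), the cyclooxygenase PTGS2 (0.09) and GFPT2 (0.12), an enzyme of the hexosamine pathway. PTGS2 was at 13.9 ± 1.3 FPKM in the knockdown and 5.74 ± 1.4 FPKM in the controls. For GATA3 they were LTB4R, MTOR and FLVCR1, and for GATA6 they were PLEKHM2, SELENOW and SLC25A25-AS1, with differences of 0.023 to 0.031. The likeness to GATA3 holds on this scale only, since adding 1 shrinks the change of low genes. MTOR was at 11.4 FPKM in the knockdown and 15.7 FPKM in the controls, a smaller relative fall than that of GATA3, from 1.53 to 0.875 FPKM. SLC25A25-AS1 itself was not called (limma adjusted p = 0.0636).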

How the data were processed

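RNA was sequenced from 6 libraries, 3 per group. TRIzol RNA went into Vazyme libraries, per the labels' protocols. The submitters' processing notes name FastQC 0.11.9, Trim Galore 0.6.5-1 and GRCh38. For the aligner, counter, annotation and strand setting nothing is given in the sources used here. FPKM were deposited by the authors in a series table and in a file per sample, whose 60623 values were identical.

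FPKM are not counts, so limma 3.58.1 in R 4.3.3 was fitted to log2(FPKM + 1), with a trend and the group as the only term, in place of a count test. Fold changes on this scale understate low genes. Genes with at least 1 FPKM in at least 3 libraries were tested (12191), with Benjamini-Hochberg adjustment over all of them and a threshold of 0.05. The fit was tested on simulated data with independent noise. Changes were planted only in genes with control means above those of GATA3 and SOX9, and were larger than those of GATA3 and GATA6. The simulation does not cover replicates that are not independent.

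The members and 17 gene lists were chosen with earlier results of these data known. Of 226 list symbols 225 were found. Members were all named, and from each list up to 6 called genes with the smallest adjusted p, any called in the other direction, and for each called member the 3 genes most like it. SOX18, neighbours of GATA2, and genes that were not called or not tested were named after their values were seen. Positions and exon lengths come from GENCODE 29. Depth is the smallest trial number of fragments, among those close to the best, at which low values came out whole within 0.05 (87.8% to 88.4% of them). Python 3.11.15 was used for the rest. Alternatives were other filters, pseudocounts, scalings and variance models, a replicate block and leaving out each library.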

Additional observations from a re-analysis of the deposited data

How the results depend on the processing

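Under 14 alternatives GATA2 and SOX9 kept their direction and their calls wherever they were tested (SOX9 was not tested at 5 FPKM). The log2 fold change of GATA2 ran from -1.67 to -1.37 and that of SOX9 from 1.05 to 1.70. With a filter of 5 FPKM 0 members were called higher and 1 lower, since GATA3, GATA4, GATA6, SOX9 and SOX12 were then not tested. Over all genes tested with that filter 1086 were called higher and 1319 lower. With no filter 1 member was called higher and 1 lower, while 1132 of all genes then tested were called higher and 1013 lower. Leaving out 1 library at a time gave 1 to 2 members higher and 1 to 2 lower, and 986 to 1344 genes higher and 975 to 1335 lower over all tested genes. The same omissions put the log2 fold change of GATA4 between -0.20 and 0.026, of SOX13 between -0.091 and 0.0013 and of SOX4 between -0.048 and 0.28, none of them called. The cause was not tested. Replicate numbers are not said to pair the samples. Correlations of deviations were 0.016, 0.057 and -0.071 for equal numbers 1 to 3, and from -0.15 to 0.13 between different numbers. So few values cannot decide whether samples were paired. With the replicate block 1193 genes were called higher and 1146 lower, with the same 4 members called. The value of GATA3 rests on 37 to 79 estimated fragments per library, and 1 control value of SOX9 on 40.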

Other observations

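Among the 3067 called genes, control replicate 3 was the control library nearest the knockdown mean for 41.1%, control replicate 1 for 32.3% and control replicate 2 for 26.6%. For GATA2, GATA3 and SOX9 it was also control replicate 3, and for GATA6 it was control replicate 1. Among the knockdown libraries the shares nearest the control mean were 33.9%, 34.5% and 31.5% for replicates 1 to 3.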
